A study of Mus musculus with 20 samples.

Results

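The nuclear genes for the subunits of the 4 complexes of the respiratory chain and of ATP synthase (complex V) were followed in the livers of wild-type (WT) and *Crem* knock-out (KO) mice. Members were chosen by gene symbol alone (Nduf followed by a, b, c, s or v and a digit, Uqcr, Atp5, Cox4 to Cox8, *Sdha*, *Sdhb*, *Sdhc*, *Sdhd* and *Cyc1*) among probe sets assigned to a single gene. The annotation of the array lists 82 such genes, and 74 of them hold values, out of 19661 genes with values in the whole series. They make up 34 genes of complex I, 4 of complex II, 8 of complex III, 16 of complex IV and 12 of complex V. *Ndufs3*, *Uqcrb*, *Cox5b*, *Atp5g1*, *Atp5g2*, *Atp5h*, *Atp5l* and *Atp5md* are listed without values. A further 6 probe sets name a member together with other genes, and 0 of these hold values. The 26 symbols searched for the subunits encoded by mitochondrial DNA gave 0 measured genes.

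Whole liver RNA of 20 mice was hybridized to Affymetrix mouse gene arrays, 1 mouse per array. The groups were WT livers at 0 h, KO livers (Crem-/-, labelled CREMKO) at 0 h, WT livers at 12 h and KO livers at 12 h, with 5 mice each. All 4 groups came from a mixed background, 129Pas x C57Bl/J, and the mice were 8 weeks old and untreated, with food at all times. Light came on at 0 h and went off at 12 h. Their sex is not given in the labels. *Crem* encodes a factor that binds cAMP response elements.

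Complexes I and II pass electrons from NADH and succinate to coenzyme Q, complex III passes them on to cytochrome c, and complex IV hands them to oxygen. Complexes I, III and IV pump protons as they do so, and ATP synthase uses the returning protons to make ATP. Each complex except complex II combines subunits encoded by mitochondrial DNA with nuclear ones, and many nuclear subunits are small accessory proteins that hold the complex together and carry no redox centre. Hepatocytes are rich in mitochondria and use this chain to oxidize fatty acids and amino acids.

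Promoters of 8 members are shown because they belong to the members with the largest falls at 12 h in each complex and to those that hold the letters of a cAMP response element. Each is the 150 bases just before the annotated start, 5′ to 3′ on the strand of the gene, from the RefSeq promoter table of GRCm38.p6. Capitals mark matches, on either strand, to the searched motifs TGACGTCA (cAMP response element, CRE), TGACG (its first 5 letters), CACGTG (E-box), CCGGAAG (ETS), GCGCATGC (NRF-1 core), AAGGTCA (ERR), AANATGGC (YY1), TTATGTAA (D-box) and GGGCGG (Sp1). Each CRE match also holds TGACG on both strands.
Ndufb10, complex I, chr17:24724424-24724573, minus strand: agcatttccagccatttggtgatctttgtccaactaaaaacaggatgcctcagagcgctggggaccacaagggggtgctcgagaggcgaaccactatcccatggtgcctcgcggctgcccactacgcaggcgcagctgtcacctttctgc
Ndufb2, complex I, chr6:39592415-39592564, plus strand: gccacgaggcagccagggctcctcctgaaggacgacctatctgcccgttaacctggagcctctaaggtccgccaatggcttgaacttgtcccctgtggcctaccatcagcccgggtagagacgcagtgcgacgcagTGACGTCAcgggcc
Ndufa10, complex I, chr1:92473759-92473908, minus strand: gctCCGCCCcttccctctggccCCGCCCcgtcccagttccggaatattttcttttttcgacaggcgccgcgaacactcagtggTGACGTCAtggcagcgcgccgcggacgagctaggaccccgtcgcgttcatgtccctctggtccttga
Sdhb, complex II, chr4:140961121-140961270, plus strand: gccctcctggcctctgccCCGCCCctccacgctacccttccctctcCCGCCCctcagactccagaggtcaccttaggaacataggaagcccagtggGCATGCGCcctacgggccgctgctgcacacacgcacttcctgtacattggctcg
Uqcrh, complex III, chr4:116075071-116075220, minus strand: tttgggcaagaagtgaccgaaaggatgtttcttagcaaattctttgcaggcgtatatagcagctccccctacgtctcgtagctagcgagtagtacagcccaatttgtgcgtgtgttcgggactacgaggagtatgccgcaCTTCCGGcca
Uqcrfs1, complex III, chr13:30545317-30545466, minus strand: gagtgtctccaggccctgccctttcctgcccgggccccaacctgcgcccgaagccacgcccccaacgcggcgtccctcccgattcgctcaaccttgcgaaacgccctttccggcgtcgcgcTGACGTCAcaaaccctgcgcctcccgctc
Cox6a1, complex IV, chr5:115348959-115349108, minus strand: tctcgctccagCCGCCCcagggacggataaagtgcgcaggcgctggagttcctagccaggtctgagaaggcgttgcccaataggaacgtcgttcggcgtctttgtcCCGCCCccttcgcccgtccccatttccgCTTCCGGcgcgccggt
Atp5e, complex V, chr2:174464102-174464251, minus strand: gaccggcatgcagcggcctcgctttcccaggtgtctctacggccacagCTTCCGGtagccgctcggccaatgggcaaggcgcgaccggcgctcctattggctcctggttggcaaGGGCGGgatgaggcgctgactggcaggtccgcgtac

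Of the 74 members, 59 had a window in that table (250 bases before to 50 after the start, 1 window per gene). The CRE letters stood in 4 of these windows (6.78%), those of *Ndufb2*, *Ndufa10*, *Uqcrfs1* and *Ndufa11*, against 1.88% of the windows of all 27025 genes in the table. The window of *Ndufa11* is not printed, and its 150 bases just before the start hold no CRE match. The NRF-1 core stood in 13.6% of member windows against 2.8% of all, the ETS letters in 20.3% against 9.12%, the YY1 letters in 25.4% against 6.23%, and TGACG in 37.3% against 21%. The E-box stood in 6.78% of member windows against 7.24% of all, the ERR letters in 10.2% against 4.66%, the D-box in 1.69% against 0.955% and the Sp1 letters in 40.7% against 35.9%. These counts include matches in the 50 bases after the start, which are part of the transcript. Among the stretches of 150 bases just before the start that were searched on their own, only that of *Ndufb5* held the YY1 letters. These are matches of letters, and binding was not measured. Among the 33 windows of members lower at 12 h in both genotypes, 3 held the CRE, 15 TGACG, 2 the E-box, 9 the ETS letters, 7 the NRF-1 core, 3 the ERR letters, 7 the YY1 letters, 1 the D-box and 14 the Sp1 letters. Among the 22 windows of members that passed in neither genotype the counts were, in the same order, 1, 6, 1, 3, 1, 1, 8, 0 and 9. The difference between these sets was not tested.

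The deposited values are log2 expression after RMA, so a difference of 1 is a doubling, and no level is set against that of another probe set. The array medians lay between 7.07 and 7.24, and from 0 h to 12 h they shifted by -0.087 in WT and by -0.0594 in KO. *Crem* itself was at 8.32 ± 0.17 (SD, n = 5) in WT and 7.85 ± 0.30 in KO livers at 0 h, and at 7.97 ± 0.06 and 7.60 ± 0.17 at 12 h. Its KO minus WT difference was -0.48 at 0 h, -0.37 at 12 h and -0.42 over both times. None of these passed (limma adjusted p = 0.987, 0.19 and 0.135). From 0 h to 12 h *Crem* differed by -0.35 in WT (adjusted p = 0.0269) and -0.24 in KO livers (0.146). The liver labelled KO mouse 1 (8.17) lay above the lowest WT mouse at 0 h (8.11), against its label. Every 12 h array carries the batch label 5 and every 0 h array a label from 1 to 4, so time and batch label cannot be told apart in any comparison of 12 h with 0 h below. Nor can fewer cells of a type and less RNA per cell in whole liver RNA.

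At the end of the light phase the transcripts of most subunits were lower than at its onset. In WT livers 42 of the 74 members were lower at 12 h (adjusted p under 0.05 from limma over all 25689 probe sets), against 14.3% of all probe sets, and 1 was higher, against 13.5%. In KO livers 44 were lower, against 9.69% of all probe sets, and 0 were higher, against 10.6%. Without KO mouse 1, whose *Crem* level lay among the WT livers, 41 were lower, against 2194 of all 25689 probe sets. At an unadjusted p under 0.05 from limma 54 members differed in KO livers in either direction, and no share of all probe sets is given for this threshold. The median difference over the members was -0.28 in WT and -0.26 in KO livers, and over all probe sets it was -0.03 and -0.02. Over all probe sets 3462 were higher and 3682 lower in WT livers, and 2722 and 2489 in KO livers. With each array centred on its median these became 5294 and 1995 in WT and 3676 and 1603 in KO livers. Lower in both genotypes were 40 members, which is 95.2% of those lower in WT and 90.9% of those lower in KO livers. No such overlap is given for all probe sets, and both genotypes carry the same difference in time and batch label. *Ndufa4* and *Ndufs5* passed in WT livers alone and *Atp5g3*, *Ndufa12*, *Sdhc* and *Uqcrc2* in KO livers alone. The KO call of *Ndufa12* (-0.25) was lost with the batch label as a block (adjusted p = 0.0583), with centring (0.138) and without WT mice 80 and 170 (0.0508), and that of *Uqcrc2* with quantile normalization (0.0593). The other 4 each lost their call under at least 1 alternative, given where they are described. None of these 6 passed the test of the difference between the genotypes, so this does not show that they differ between genotypes.

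In WT livers all 5 mice at 12 h lay below all 5 mice at 0 h for 40 members, against 8.33% of all probe sets, and in KO livers for 45 members, against 7.49%. For 38 members this held in both genotypes, and no share of all probe sets is given for that. Among the 43 members called in WT livers the change with time was larger than the largest difference between the 4 batches of 0 h for 42, and among the 44 called in KO livers for 42. The median of that difference between batches was 0.18 over the members in WT and 0.19 in KO livers. The exceptions were *Ndufa5* in WT and *Ndufa6* and *Ndufa8* in KO livers. Called members were chosen for a change that is large against the spread within groups, which includes these batch differences. The counts of larger changes thus follow largely from that choice. No 0 h array is in batch 5, so they cannot separate time from batch label.

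**Figure D1:**
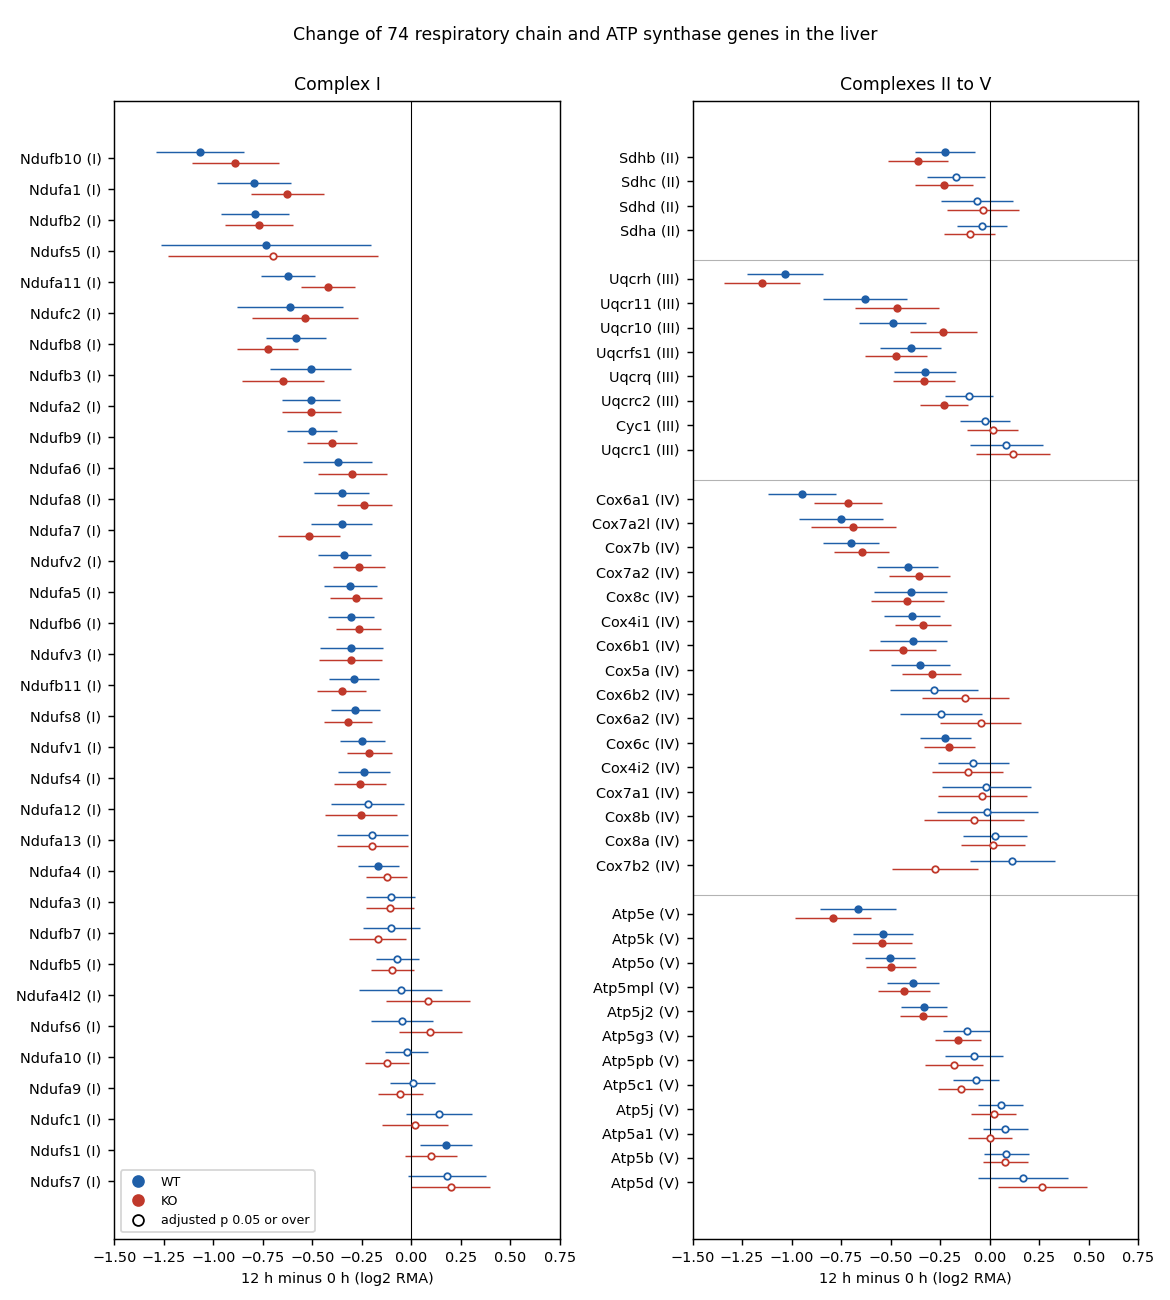
Difference between 12 h and 0 h on the log2 RMA scale (horizontal axis) for 74 genes, with 95% confidence intervals, in WT (blue) and KO livers (red). Filled points passed at an adjusted p under 0.05; in WT livers 42 filled points lie below 0 and 1 above, and in KO livers 44 lie below.

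In complex I, 22 of 34 members were lower at 12 h in WT livers and 21 in KO livers, with a median difference of -0.30 and -0.27. Most of these are accessory subunits, of which 19 of 29 fell in WT and 18 in KO livers. *Ndufb10*, an accessory subunit of the membrane arm, stood at 9.49, 9.57, 9.77, 9.84 and 9.96 in the WT livers at 0 h and at 8.61, 8.61, 8.62, 8.63 and 8.82 in those at 12 h. The KO livers were at 9.30, 9.43, 9.53, 9.82 and 9.86 at 0 h and at 8.55, 8.57, 8.76, 8.77 and 8.85 at 12 h. Neither genotype had a 12 h mouse as high as its lowest 0 h mouse. The difference was -1.07 in WT (standard error 0.11, limma adjusted p = 2.83e-07) and -0.89 in KO livers (adjusted p = 3.07e-06), a fold of 2.10 and 1.85.

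*Ndufa1*, a small accessory subunit encoded on the X chromosome, ran from 10.62 to 10.76 in WT livers at 0 h and from 9.72 to 9.98 at 12 h. The KO values ran from 10.47 to 10.89 and from 9.94 to 10.31. The groups did not overlap in either genotype, with differences of -0.79 and -0.63 (limma adjusted p = 1.28e-06 and 2.43e-05). *Ndufb2*, whose promoter above has the CRE letters near its end, differed by -0.79 in WT and -0.77 in KO livers, and *Ndufb8*, also of the membrane arm, by -0.58 and -0.73. For both genes every 12 h mouse lay below every 0 h mouse of its genotype. *Ndufs5* had the largest standard error of the members and ran from 8.89 to 10.25 in WT livers at 12 h and from 9.38 to 10.62 in KO livers at 0 h. With a standard error of 0.26, differences of -0.73 and -0.70 gave limma adjusted p = 0.036 and 0.058. The WT call was lost with centring (0.0611), an intensity trend (0.068) and without WT mice 80 and 170 (0.149).

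Of the catalytic core, the subunits with flavin and iron-sulphur centres, 5 members were measured, and 3 fell in each genotype. *Ndufv1*, which binds NADH and flavin, differed by -0.25 in WT and -0.21 in KO livers. *Ndufv2* differed by -0.34 and -0.27, and *Ndufs8* by -0.28 and -0.32. *Ndufs1*, the largest iron-sulphur subunit, stood at 11.09, 11.11, 11.11, 11.15 and 11.19 in WT livers at 0 h and at 11.26, 11.29, 11.31, 11.34 and 11.34 at 12 h. The KO livers were at 11.01, 11.10, 11.14, 11.15 and 11.18 and at 11.01, 11.21, 11.24, 11.30 and 11.33. In WT livers the groups did not overlap and *Ndufs1* was the member that rose, by 0.18 (limma adjusted p = 0.0416), while the KO groups overlapped (0.10, adjusted p = 0.293). The rise no longer passed without WT mouse 78, 80, 145, 147, 111, 167, 168 or 170 (adjusted p between 0.057 and 0.0798) or with quantile normalization (0.0526). *Ndufs7*, which carries the last iron-sulphur centre before coenzyme Q, differed by 0.18 and 0.20 (adjusted p = 0.168 and 0.151) and passed in both genotypes with each array centred on its median.

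*Ndufa4*, which is now assigned to complex IV, differed by -0.17 in WT (limma adjusted p = 0.016) and -0.12 in KO livers (0.082). The WT call was lost with each array centred on its median (-0.08, adjusted p = 0.273), with the compared arrays alone (0.0705) and without WT mice 80 and 170 (0.0533). *Ndufc1* has 2 probe sets. The one that stands for the gene, with the higher mean, differed by 0.14 in WT livers (adjusted p = 0.198), and the other by 0.19 (adjusted p = 0.035). In KO livers neither passed. Several subunit genes have near-identical processed copies in the genome, and no source used here says how far the probes tell these apart.

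In complex II, the only complex encoded wholly in the nucleus, 1 of 4 members fell in WT and 2 fell in KO livers (medians -0.12 and -0.17). *Sdhb*, the iron-sulphur subunit, stood at 11.0025, 11.08, 11.09, 11.15 and 11.21 in WT livers at 0 h and at 10.75, 10.87, 10.87, 10.93 and 10.98 at 12 h. The KO values were 11.06, 11.07, 11.14, 11.19 and 11.21 and at 10.62, 10.63, 10.79, 10.86 and 10.97. The times did not overlap in either genotype, with differences of -0.23 and -0.36 (limma adjusted p = 0.0247 and 0.00101). In WT livers the difference missed the threshold with each array centred on its median (-0.14, adjusted p = 0.149) and without mouse 80, 147 or 168 (adjusted p = 0.0666, 0.0514 and 0.0692).

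*Sdha*, the flavin subunit that oxidizes succinate, ran from 12.3206 to 12.4651 in WT livers at 0 h and from 12.2119 to 12.4476 at 12 h. The KO values ran from 12.3192 to 12.4441 and from 12.1879 to 12.3372. The times overlapped in both genotypes (-0.04 and -0.10, limma adjusted p = 0.676 and 0.267). Of the membrane anchors, *Sdhc* differed by -0.17 and -0.23 (adjusted p = 0.080 and 0.022) and *Sdhd* by -0.07 and -0.03 (adjusted p = 0.608 and 0.833). The call of *Sdhc* in KO livers was lost without KO mouse 77, 1, 18 or 109 (adjusted p = 0.0615, 0.0512, 0.0507 and 0.0616) and with each array centred on its median (0.0927).

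In complex III, 5 of 8 members fell in WT and 6 in KO livers, with medians of -0.36 and -0.28. All 4 measured small subunits fell in both. *Uqcrh*, the acidic hinge protein beside cytochrome c1, stood at 11.84, 11.86, 11.89, 12.07 and 12.15 in WT livers at 0 h and at 10.79, 10.84, 10.94, 11.03 and 11.06 at 12 h. In KO livers it was at 11.73, 11.92, 11.92, 12.18 and 12.18 and at 10.65, 10.82, 10.87, 10.87 and 10.98. The times were apart by more than the spread of either group. The difference was -1.03 in WT (standard error 0.09, limma adjusted p = 6.66e-08) and -1.15 in KO livers (adjusted p = 1.51e-08), a fold of 2.04 and 2.22.

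The other small subunits were *Uqcr11* (-0.63 in WT and -0.47 in KO livers), *Uqcr10* (-0.49 and -0.23) and *Uqcrq* (-0.33 in both). The KO call of *Uqcr10* was lost with the batch label as a block (-0.24, adjusted p = 0.0558) and with each array centred on its median (-0.18, 0.157). *Uqcrfs1*, the Rieske iron-sulphur protein, whose promoter holds the CRE letters, ran from 10.36 to 10.55 in WT livers at 0 h and from 9.83 to 10.21 at 12 h, and from 10.30 to 10.48 and from 9.82 to 10.04 in KO livers. It fell by 0.40 and 0.47, with no overlap (limma adjusted p = 4.53e-04 and 8.72e-05). *Cyc1*, cytochrome c1 itself, ran from 11.55 to 11.76 at 0 h and from 11.58 to 11.71 at 12 h in WT livers, and the times overlapped in both genotypes (-0.02 and 0.02, adjusted p = 0.815 and 0.891). Of the core proteins, *Uqcrc1* did not pass (0.08 and 0.12) and *Uqcrc2* passed in KO livers (-0.23, adjusted p = 0.00718, against -0.10 and 0.189 in WT).

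In complex IV, 9 of 16 members fell in each genotype, with medians of -0.32 and -0.28. *Cox6a1*, the isoform of subunit 6a found in the liver, stood at 11.82, 11.89, 11.89, 11.92 and 12.03 in WT livers at 0 h and at 10.76, 10.92, 10.99, 10.99 and 11.15 at 12 h. In KO livers it was at 11.60, 11.73, 11.94, 11.94 and 11.99 and at 11.04, 11.06, 11.11, 11.17 and 11.23. Its 2 times did not overlap in either genotype. The difference was -0.95 in WT (standard error 0.08, limma adjusted p = 4.66e-08) and -0.72 in KO livers (adjusted p = 1.76e-06). *Cox7a2l*, which links complexes III and IV in supercomplexes, fell by 0.75 and 0.69, and *Cox7b*, a small subunit, by 0.70 and 0.65.

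The array also carries the isoforms made in other tissues, and these are given beside the general ones. Of the 74 members 5 were not above the median level of all probe sets, among them *Cox4i2*, *Cox6b2*, *Cox7b2* and *Cox8b*, and *Cox8c* had group means from 7.11 to 7.54, where the array medians ran from 7.07 to 7.24. Whether these probe sets were above background was not tested. The general isoforms *Cox4i1* (-0.39 in WT and -0.34 in KO livers), *Cox6b1* (-0.38 and -0.44) and *Cox7a2* (-0.41 and -0.36) fell in both genotypes, whereas *Cox8a* did not pass (0.03 and 0.01). *Cox4i2*, known from lung, differed by -0.08 and -0.11, and the isoforms known from heart and skeletal muscle by -0.25 and -0.05 (*Cox6a2*), -0.02 and -0.04 (*Cox7a1*) and -0.01 and -0.08 (*Cox8b*). None of these passed. Of the isoforms known from testis, *Cox8c* fell by 0.40 and 0.42 (limma adjusted p = 0.00206 and 0.0017), while *Cox6b2* (-0.28 and -0.12) and *Cox7b2* (0.12 and -0.28) did not pass. *Cox8c* ran from 7.34 to 7.59 in WT livers at 0 h and from 6.93 to 7.30 at 12 h, and from 7.34 to 7.62 and from 6.90 to 7.33 in KO livers. In all, 8 of the 9 members that fell are general or single-isoform subunits or *Cox7a2l*.

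**Figure D2:**
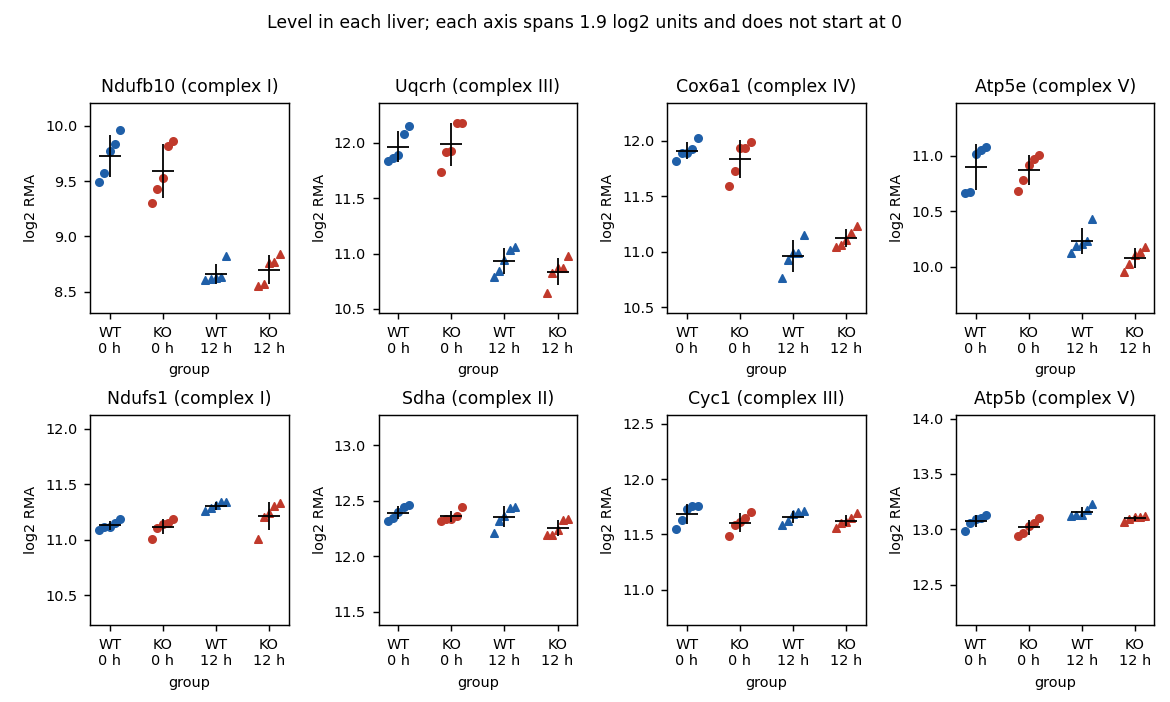
Log2 RMA level (vertical axis) of 8 members in each liver, by genotype (WT blue, KO red) and time (circles 0 h, triangles 12 h), with the mean and SD of 5 mice. *Ndufb10*, *Uqcrh*, *Cox6a1* and *Atp5e* are lower in all 12 h livers, and *Ndufs1*, *Sdha*, *Cyc1* and *Atp5b* lie within a narrow range in all groups.

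In ATP synthase, 5 of 12 members fell in WT and 6 in KO livers, with medians of -0.10 and -0.17. In the F1 head, which holds the catalytic sites, *Atp5e*, the small epsilon subunit of the central stalk, stood at 10.66, 10.67, 11.02, 11.05 and 11.08 in WT livers at 0 h and at 10.12, 10.18, 10.20, 10.24 and 10.43 at 12 h. In KO livers it was at 10.68, 10.78, 10.92, 10.97 and 11.01 and at 9.95, 10.02, 10.11, 10.14 and 10.18. There was no overlap of the times in either genotype, and the differences were -0.66 and -0.79 (limma adjusted p = 1.79e-05 and 2.11e-06).

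The other 4 measured subunits of the head did not pass. *Atp5b*, the catalytic beta subunit, stood at 12.99, 13.06, 13.10, 13.10 and 13.13 in WT livers at 0 h and at 13.12, 13.13, 13.13, 13.18 and 13.23 at 12 h, and from 12.94 to 13.10 and from 13.07 to 13.12 in KO livers. Its groups overlapped, with differences of 0.08 in both genotypes (limma adjusted p = 0.274 and 0.34). *Atp5a1* (alpha) differed by 0.08 and 0.00, *Atp5c1* (gamma) by -0.07 and -0.15 and *Atp5d* (delta) by 0.17 and 0.27. With each array centred on its median *Atp5a1* and *Atp5b* passed as higher in WT livers (0.17 each) and *Atp5d* in KO livers (0.33), and *Atp5d* also passed there with quantile normalization (0.32) and without WT mouse 146 or KO mouse 1.

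All 3 measured small membrane subunits fell in both genotypes, namely *Atp5k* (-0.54 in both), *Atp5mpl* (-0.39 and -0.43) and *Atp5j2* (-0.33 in both). *Atp5o*, which joins the head to the peripheral stalk, fell by 0.50 in both. The other stalk members *Atp5pb* (-0.08 and -0.18) and *Atp5j* (0.06 and 0.02) did not pass. *Atp5g3*, the one gene of the proton-carrying c ring with values, differed by -0.12 and -0.16 (limma adjusted p = 0.128 and 0.0486). Its KO call was lost with the batch label as a block (adjusted p = 0.061), the compared arrays alone (0.0873), quantile normalization (-0.08, 0.364) and centring (-0.10, 0.217).

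Set side by side, complex I (22 of 34 in WT livers) and complex III (5 of 8) had the larger shares of members lower at 12 h, and complex II (1 of 4) and complex V (5 of 12) the smaller ones, with complex IV between them (9 of 16). In KO livers complexes II and V (2 of 4 and 6 of 12) again had the smaller shares and complex III (6 of 8) the largest. The 16 members of complex IV include the isoforms made in other tissues, of which only *Cox8c* fell. Of its other members all but *Cox8a* fell, so its share depends on whether those isoforms are counted. These are counts over few genes, and the differences between complexes were not tested. The median of each complex stayed below 0 in both genotypes with quantile normalization and with each array centred on its median, where complex V in WT livers was at -0.01. Over complexes I, II, III and V together, 6 of 16 catalytic and core subunits fell in WT and 7 in KO livers, with medians of -0.05 and -0.12. With each array centred on its median the WT median of these 16 turned to 0.03, with 5 lower and 4 higher, and the KO median was -0.07. Of the 42 other subunits 27 and 28 fell, with medians of -0.32 and -0.29 (-0.23 in both after centring).

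For each mouse the members of a complex were also summarized as the median of their deviations from each gene's mean over 20 arrays. In complex I this median was 0.16 ± 0.05 (SD, n = 5) in WT and 0.12 ± 0.02 in KO livers at 0 h, and -0.12 ± 0.04 and -0.15 ± 0.04 at 12 h. In complex III it was 0.20 ± 0.08 and 0.13 ± 0.06 at 0 h and -0.13 ± 0.07 and -0.14 ± 0.06 at 12 h. In complexes I, III, IV and V every 12 h mouse lay below every 0 h mouse of its genotype. Complex II is the exception, with WT mice from 0.02 to 0.21 at 0 h and from -0.18 to 0.08 at 12 h, and KO mice from -0.02 to 0.11 and from -0.18 to -0.00.

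**Figure D3:**
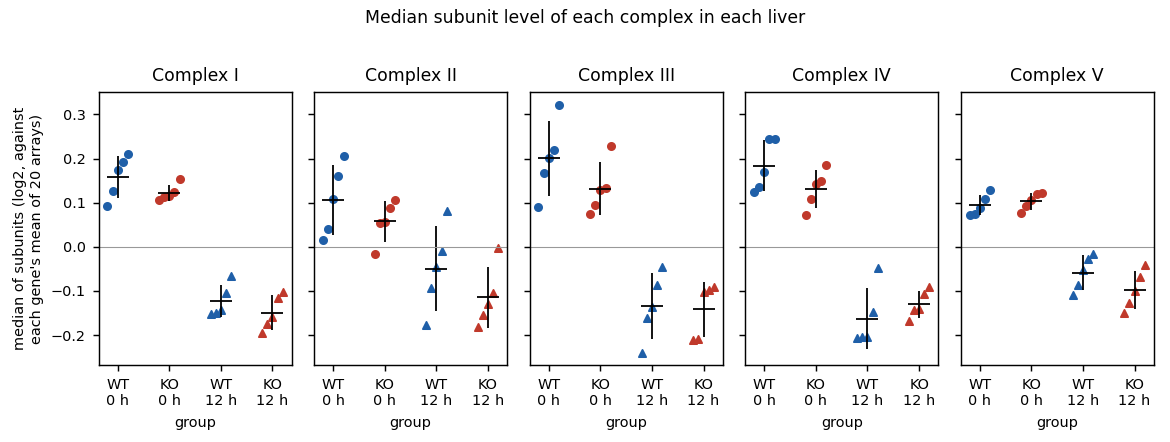
Median of the subunits of each complex in each liver, as log2 deviation from each gene's mean over 20 arrays (vertical axis), by genotype (WT blue, KO red) and time (circles 0 h, triangles 12 h), with the mean and SD of 5 mice. The 12 h livers lie below the 0 h livers in complexes I, III, IV and V, and overlap with them in complex II.

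Under quantile normalization or with each array centred on its median, all 42 members lower in WT and all 44 lower in KO livers stayed below 0. With quantile normalization 42 and 41 of them still passed, and with centring 37 and 36. Quantile normalization turned the sign of 5 other members in WT and of 2 in KO livers, and centring of 12 and 4.

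Other groups of genes were counted beside the members. Of 28 cytosolic ribosomal protein genes 19 were lower in WT and 17 in KO livers (medians -0.36 and -0.40), of 36 proteasome subunits 24 and 21 (-0.31 and -0.28), and of 73 mitochondrial ribosomal proteins 33 and 32 (-0.21 and -0.19). In the tricarboxylic acid cycle 0 of 12 genes were lower and 3 higher in WT livers, and 1 was lower and 2 higher in KO livers. *Ogdh*, of the 2-oxoglutarate dehydrogenase complex, was higher by 0.42 and 0.44, and *Dlst*, of the same complex, by 0.38 and 0.27. The gene lower in KO livers was *Dld* (-0.31, limma adjusted p = 0.0123). Of 10 genes for outer membrane and other abundant mitochondrial proteins 4 were higher and 0 lower in each genotype, among them *Tomm40* (0.54 and 0.48), the import channel, and *Vdac2* (0.43 and 0.34), a porin. The medians of the ribosomal proteins, the proteasome and the outer membrane group kept their sign under both other scalings, while the median of the tricarboxylic acid cycle in KO livers (-0.02) turned to 0.04 when arrays were centred on their medians. After centring, 5 genes of the cycle and 7 of the outer membrane group were higher in WT livers, where 5294 of all 25689 probe sets were. No test compared these groups with the members.

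**Figure D4:**
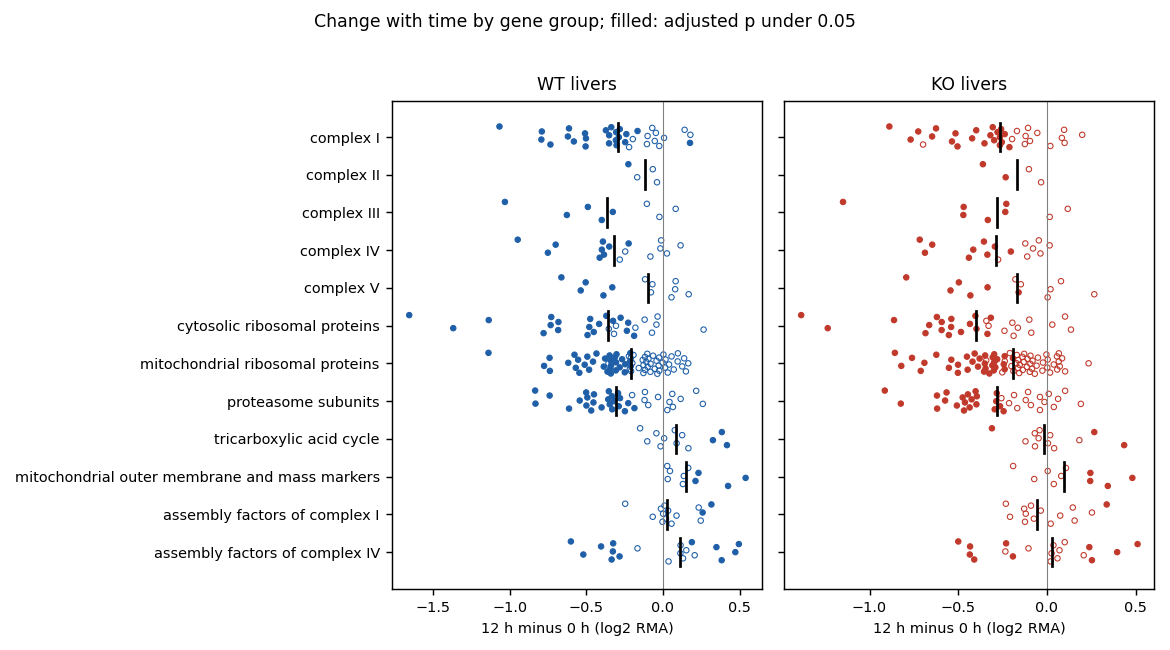
Difference between 12 h and 0 h on the log2 RMA scale (horizontal axis) for each gene of the 5 complexes and of 7 other groups, in WT (left) and KO livers (right). Filled points passed at an adjusted p under 0.05 and black bars are medians, which lie below 0 for the 5 complexes, both kinds of ribosomal protein and the proteasome, and above 0 in both genotypes for outer membrane and mass markers.

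Assembly factors, which build the complexes but are not part of them, were counted by complex. Of 14 for complex I, 2 were higher and 0 lower in WT livers (14.3%, against 13.5% of all probe sets) and 1 was higher and 0 lower in KO livers. *Foxred1* was higher in both (0.26 and 0.34). With quantile normalization 1 was higher and 1 lower in WT livers and 1 and 2 in KO livers. Of 10 for complexes II and III, 2 were higher and 2 lower in WT livers and 1 and 4 in KO livers, with *Ttc19* at 0.23 and 0.26 and *Sdhaf1* at -0.21 and -0.22. Of 19 for complex IV, 5 were higher and 7 lower in WT livers and 4 and 6 in KO livers. *Cox17*, which delivers copper, differed by -0.52 and -0.50, and *Cox15*, which makes heme A, by 0.50 and 0.51. The medians of the assembly factors of complex IV were 0.11 and 0.03, the latter turning to -0.0015 with quantile normalization. Of 4 for complex V, *Fmc1* was lower in both genotypes (-0.86 and -0.95).

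Among 19 genes of electron carriers and coenzyme Q synthesis, 4 were higher and 2 lower in WT livers and 5 and 3 in KO livers. Of all probe sets 13.5% were higher and 14.3% lower in WT livers, and 10.6% and 9.69% in KO livers. *Coq10b*, a coenzyme Q binding protein, was higher by 1.09 and 1.38, and *Coq8a*, a kinase-like protein of coenzyme Q synthesis, differed by -0.86 and -1.08. Among 18 regulators of respiratory genes 5 were higher in WT and 3 in KO livers and 0 were lower, against the same shares of all probe sets. With each array centred on its median 10 and 6 were higher. Centring also raised the probe sets called higher over the whole series, from 3462 to 5294 of 25689 in WT and from 2722 to 3676 in KO livers. *Ppargc1b*, a coactivator of mitochondrial genes, was higher by 0.55 and 0.67. *Ppargc1a*, its better known relative, was higher by 0.85 in WT livers and did not pass in KO livers. This does not show that *Ppargc1a* differs between genotypes, since 0 of all 25689 probe sets passed the test of that difference.

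Markers of the cell types of the liver were followed alongside. The hepatocyte list had a median of 0.01 in WT and -0.00 in KO livers, with 3 of 12 higher and 2 lower in WT livers and 2 and 2 in KO livers, and its mean log2 level lay between 13.21 and 13.43 in all 20 livers. With each array centred on its median 5 and 3 of them were higher and the medians were 0.09 and 0.06. Under that scaling 5294 of all 25689 probe sets were higher in WT and 3676 in KO livers. Kupffer cell markers were lower at 12 h for 7 of 10 genes in WT livers (median -0.43) and for 2 in KO livers (median -0.23). The KO count was 5 with quantile normalization and 1 with centring, the WT counts were 7 and 6, and the difference between genotypes was not tested. Their mean level ran from 9.45 to 9.76 in WT livers at 0 h and from 9.01 to 9.36 at 12 h, and from 9.27 to 9.74 and from 9.12 to 9.47 in KO livers. Of 10 skeletal muscle markers 3 were lower in WT and 2 in KO livers, and of 10 sinusoidal endothelium markers 3 were higher and 1 lower in WT livers and 2 and 1 in KO livers. Stellate cell markers were higher for 2 of 10 genes in WT livers, and cholangiocyte (1 of 6 in each genotype), erythroid (1 of 4 in WT) and adipocyte markers (1 of 6 in KO) were lower. Of all probe sets 13.5% were higher and 14.3% lower in WT livers, and 10.6% and 9.69% in KO livers. Counts of 1 to 3 genes are therefore not read as a change of a cell type. Lymphocyte and neutrophil markers gave 0 calls from limma in either genotype, with 2 of 9 and 3 of 10 at an unadjusted p under 0.05 in WT and 0 and 1 in KO livers. The part of these in the fall of the members was not tested.

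Whether the loss of *Crem* altered the subunits was asked at each time and over both. At 0 h 0 of 74 members differed between KO and WT livers (limma adjusted p under 0.05, against 0.0% of all probe sets), and 1 had an unadjusted p under 0.05. At 12 h 0 members differed, against 0.0234% of all probe sets, and 2 had an unadjusted p under 0.05. Over both times 0 differed, against 0.0117%, and 3 had an unadjusted p under 0.05. The change from 0 h to 12 h differed by genotype for 0 members, against 0.0% of all probe sets, with 3 at an unadjusted p under 0.05. Without KO mouse 1 these counts from limma at an adjusted p under 0.05 were again 0. Where the genotypes do not differ, an unadjusted p under 0.05 arises in about 0.05 of tests, if the model holds. None of the unadjusted counts for genotype in this paragraph exceeds that share of the 74 members. The share of all probe sets at an unadjusted p under 0.05 is not given for these comparisons.

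Over both times the differences ran from -0.20 (*Cox8b*) to 0.09 (*Ndufa1*), with a median of -0.03 over the members and 0.00 over all probe sets. The 95% confidence interval of 72 of the 74 differences lay within 0.3 of 0 on the log2 scale, which leaves room for changes below that size, and at 12 h that of 63 did. By complex, the medians over both times were -0.04 in complex I, -0.06 in II, -0.04 in III, 0.01 in IV (-0.02 with each array centred on its median) and -0.02 in V (0.0019 with quantile normalization). At 12 h the median over the members was -0.03, and it turned to 0.01 with quantile normalization and was -0.08 with each array centred on its median. The 4 batches of 0 h hold 1 or 2 mice of each genotype, and within them the median difference over the members was 0.00, -0.01, -0.06 and -0.03. Complex I was below 0 in all of them (-0.07 to -0.01), and complexes II, III, IV and V changed sign between batches.

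The members with the lowest p for genotype are given as the rule for named genes requires, although none passed. *Ndufa7*, an accessory subunit of complex I, stood at 8.59, 8.60, 8.66, 8.77 and 8.89 in WT and at 8.34, 8.46, 8.49, 8.55 and 8.66 in KO livers at 12 h. The groups overlapped, with a difference of -0.21 (95% confidence interval -0.36 to -0.05, limma adjusted p = 0.26). The 0 h difference was -0.04. *Ndufa11* is an accessory subunit of the membrane arm whose searched window, though not the 150 bases just before its start, holds the CRE letters. It stood at 10.30, 10.32, 10.41, 10.41 and 10.53 in WT and at 10.21, 10.23, 10.26, 10.28 and 10.28 in KO livers at 0 h. All KO mice lay below all WT mice, which held for 1 of the 74 members at 0 h and, in either direction, for 0.728% of all probe sets. Its difference was -0.14 (limma adjusted p = 0.987), against 0.06 in the 12 h livers.

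Over both times *Ndufs7* differed by -0.15 (limma adjusted p = 0.476) and *Cox8b* by -0.20 (0.456). *Ndufs7* was lower in KO livers within each batch, by -0.11 to -0.04 in the 4 batches of 0 h and -0.14 at 12 h, whereas *Cox8b* was at 0.03 in batch 4 and between -0.30 and -0.15 in the others. *Cox7b2* differed by 0.12 at 0 h and -0.27 at 12 h, with a difference between the times of -0.39 (95% confidence interval -0.70 to -0.09, adjusted p = 0.639). *Uqcr10* differed by -0.14 at 0 h and 0.11 at 12 h (adjusted p = 0.715 for the difference between the times), and *Uqcrc2* by 0.01 and -0.11. At 12 h all KO mice lay below all WT mice for *Ndufa9* and *Ndufa10*, against 2.42% of all probe sets in either direction. The other members with CRE letters had differences over both times of -0.02 (*Ndufb2*), -0.04 (*Ndufa10*) and -0.07 (*Uqcrfs1*), with adjusted p = 0.951, 0.767 and 0.672.

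**Figure D5:**
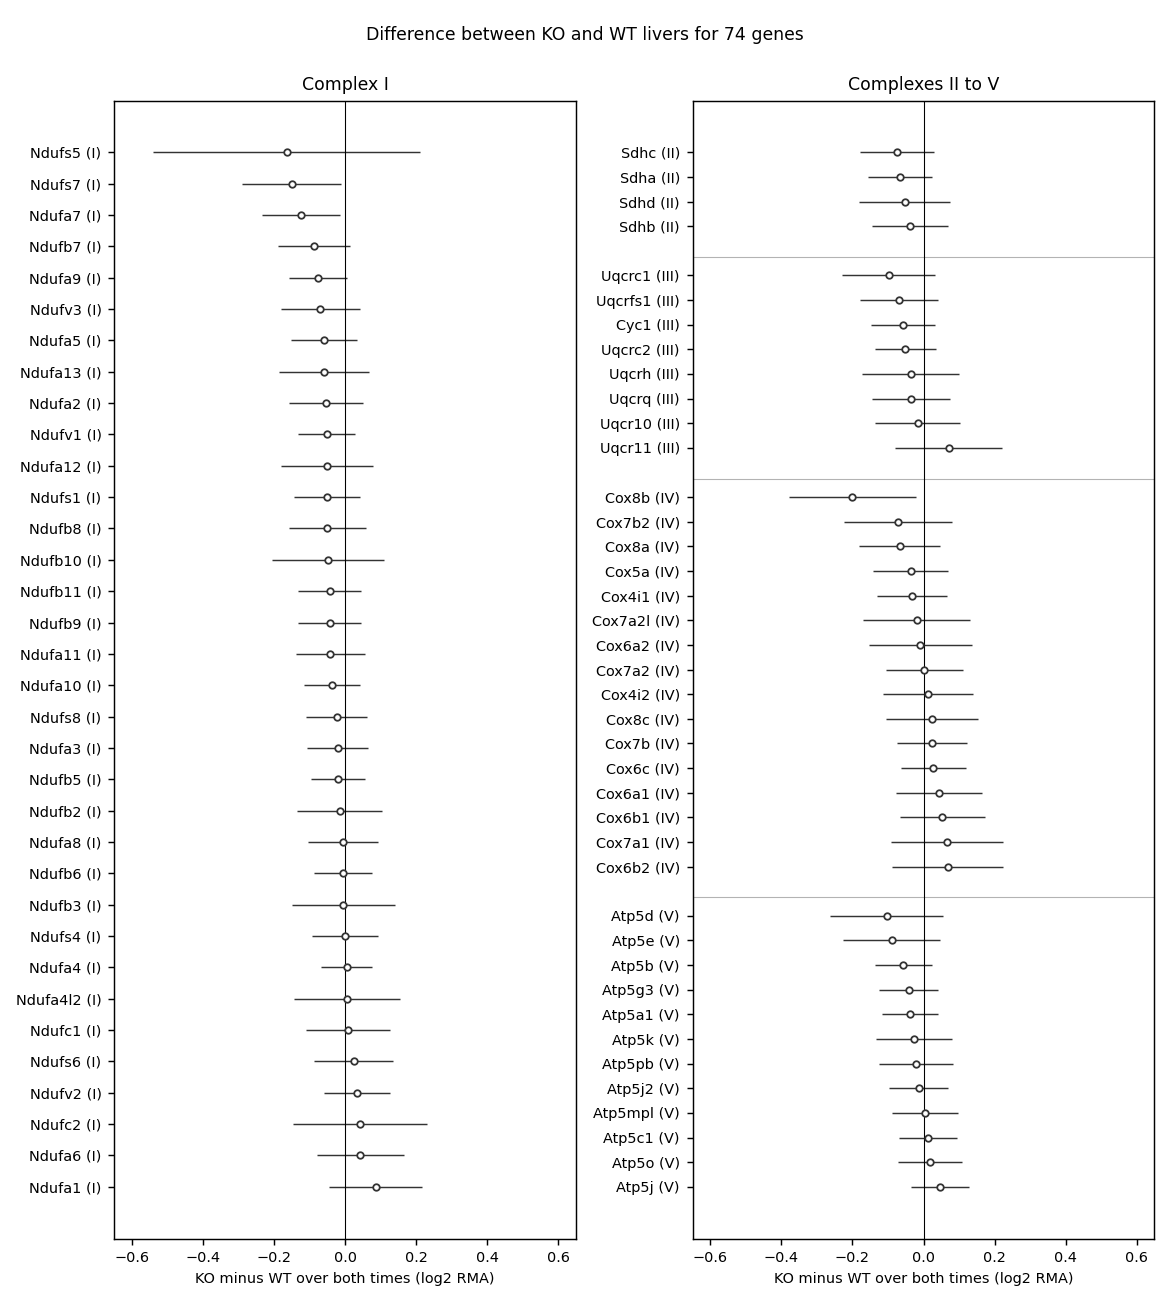
Difference between KO and WT livers over both times on the log2 RMA scale (horizontal axis) for 74 genes, with 95% confidence intervals. Open points did not pass at an adjusted p under 0.05, which holds for all 74, and the estimates run from -0.20 to 0.09.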

How the data were processed

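The values that the authors deposited are log2 levels of Affymetrix mouse gene arrays. Per the submitters' processing notes these were made by RMA (version not given), so background correction and normalization are already in the values. The table lists 35557 probe sets, and 9868 with no value on the arrays were not used. The paper given for the study treats testis and describes no processing of these livers. A linear model with 4 group means over 20 arrays was fitted by limma (version 3.58.1, R 4.3.3, lmFit then eBayes), and p-values were adjusted by Benjamini-Hochberg over all 25689 probe sets, with a threshold of 0.05. The model was also tested on simulated data. Groups follow the labelled genotype and time, and mice are the replicates. Where a gene had several probe sets, the one with the highest mean stood for it. Gene symbols came from the platform annotation; 0 were changed by the RefSeq gene table. The number of arrays limits the precision.

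Named genes were, per complex and comparison of time, up to 3 members with the largest rises and 3 with the largest falls that passed; for genotype the 3 with the lowest unadjusted p; all of complex II; isoform pairs of complex IV; genes with several probe sets or an assignment in doubt; and up to 2 passing genes per direction of other lists. *Atp5a1*, *Atp5b*, *Atp5c1*, *Atp5d*, *Atp5g3*, *Atp5j*, *Atp5j2*, *Atp5mpl*, *Atp5pb*, *Cyc1*, *Ndufa5*, *Ndufa6*, *Ndufa8*, *Ndufa9*, *Ndufa10*, *Ndufa12*, *Ndufs5*, *Ndufs8*, *Ndufv1*, *Ndufv2*, *Uqcrc1* and *Uqcrq* were named after their values were seen. Members, lists and tests were chosen with earlier results of these data known. Alternatives were the batch label as a block (a random block for time, correlation 0.0286), array weights, a fit to the compared arrays alone, bright probe sets alone, centring of every array on its median, quantile normalization, a robust prior with an intensity trend, all probe sets of a gene, a biochemical assignment of members, leaving out WT mice 80 and 170, and leaving out each array.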

Additional observations from a re-analysis of the deposited data

Results flagged for a closer look

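In 7 of 164 groups of 5 values a single mouse stood far from the other 4, where chance gives about 8.2 (about 1 in 20 groups). At 0 h, *Cox6a2* was at 7.69 in KO mouse 144 against 7.40 to 7.46 in the others, *Cox8c* at 7.34 in KO mouse 1 against 7.55 to 7.62, and *Ndufa7* at 9.10 in KO mouse 1 against 8.98 to 9.01. Among WT mice at 0 h, *Cox7a2l* was at 10.73 in mouse 78 against 10.86 to 10.90, *Ndufs7* at 10.85 in mouse 146 against 11.20 to 11.30, and *Uqcrfs1* at 10.55 in mouse 80 against 10.36 to 10.39. At 12 h, *Ndufb10* was at 8.82 in WT mouse 111 against 8.61 to 8.63. The count is below that given by chance, and no cause was tested.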

How the results depend on the processing

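Each array centred on its median moved the medians for time in WT livers to -0.195 over the members, -0.209 in complex I, -0.0301 in II, -0.276 in III, -0.229 in IV and -0.0105 in V, and in KO livers to -0.202 over the members, -0.206 in I, -0.225 in IV and -0.110 in V (complex V -0.124 with quantile normalization). Complex IV was at -0.388 in WT and -0.346 in KO livers with bright probe sets alone, and at -0.385 in WT livers with the biochemical assignment. Members higher in WT livers numbered 5 with centring, 2 with every probe set of a gene counted and 0 with the batch block, a fit to the compared arrays alone, quantile normalization, array weights or without WT mice 80 and 170. In KO livers they numbered 2 with centring and 1 with quantile normalization. For genotype at 12 h quantile normalization turned the medians to 0.0109 over the members, 0.011 in complex I and 0.0056 in complex V, and centring gave -0.0765, -0.081 and -0.0854. Quantile normalization also turned the difference between times in complex V to 0.0143. The cause was not tested. Leaving out 1 array gave 0 to 1 members higher in WT and 0 to 1 in KO livers, 40 to 45 lower in WT and 39 to 45 in KO livers, and a median of complex V in WT livers between -0.131 (without WT mouse 167) and -0.0818. Genotype gave 0 members in each setting. No paired analysis was possible because no mouse number recurs in another group.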
